A study of Arabidopsis thaliana with 18 samples.

Results

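The loci described here are the genes and pseudogenes annotated around the centromeres of the 5 Arabidopsis thaliana chromosomes. A locus was a member when its lowest exon start, in TAIR10 coordinates, lay on chromosome 1 at 13.5 to 16.5 Mb, chromosome 2 at 2.5 to 5.0 Mb, chromosome 3 at 11.6 to 15.0 Mb, chromosome 4 at 2.8 to 4.9 Mb or chromosome 5 at 10.5 to 13.5 Mb. These windows held 3129 of the 37336 genes in the count table, and 1 further locus inside them was set aside and is not analysed here. Chromosome 3 contributed 775 members, chromosome 2 715, chromosome 5 655, chromosome 1 517 and chromosome 4 467. The annotation fitted the label, since 2327 members (74.4%) were pseudogenes, against 7.37% of the 33921 other genes of the chromosomes. The rest were 629 protein-coding genes, 141 non-coding RNA genes and 32 loci of other classes.

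In Arabidopsis, the DNA that flanks the centromeres is packed into constitutive heterochromatin, which is rich in transposable elements and their degenerate copies. Cytosine methylation in CG and other contexts, repressive histone methylation and chromatin remodelling keep most of it transcriptionally silent. Ordinary genes are interspersed among the repeats, and RefSeq lists many transposable element genes as pseudogenes. Chromosome 2 additionally carries a nuclear copy of mitochondrial DNA next to its centromere.

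Transcripts were counted in germinating seed at 24 h SL, that is after 48 h of dark stratification at 4 °C followed by 24 h of continuous light at 22 °C. The groups were 8 homozygous T-DNA lines and the wild type Col-0, with 2 libraries each. The lines carry insertions in the transcription factor genes HAT2, OBP1, LMI1, WRKY14, SMB, VND2, ATHB25 and ATHB15 and are written in lower case. Each line stands for its gene through 1 insertion allele in the Col-0 background, and T-DNA lines can carry further changes outside the intended gene. Seed was pooled over several parents and it is not stated whether the duplicates had separate pools, so p-values measure the spread between these libraries, which may be technical. The polyA-selected libraries held 18146206 to 33111743 counts, and a locus without a polyadenylated transcript would be missed. The glyoxylate cycle transcript ICL, a marker of reserve use in germinating seed, was at 26329.6 to 38300.1 CPM (counts scaled to a common library size) in every library.

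The targeted transcript was called lower in athb15, athb25, hat2, lmi1 and smb, but not in vnd2. In the libraries labelled obp1, OBP1 stood at 13.9 and 11.5 CPM, against 8.93 and 8.45 CPM in Col-0, with an edgeR adjusted p of 0.0262. In the libraries labelled wrky14, WRKY14 stood at 9.58 and 11.2 CPM, against 0.286 and 0.341 CPM in Col-0, with an edgeR adjusted p of 3.38e-09. The targeted transcript was thus not lower in either pair, and only the rise of WRKY14 passed the threshold for a call. Counts over a whole gene do not show whether a full or working transcript is made, and this was not tested. The paper reports that resequencing found only the T-DNA insertion at the intended gene in each line. Directions given for these pairs are those of libraries so labelled. Seed reserve transcripts also differed between lines. The summed level of CRA1, CRU3, SESA1 and OLEO1, which encode storage and oil body proteins, was 5957 to 10602.4 CPM in vnd2, 3918.9 to 4366.5 CPM in smb and 717.0 to 780.0 CPM in hat2, against 1437.4 to 1726.7 CPM in Col-0. All 4 were called higher in vnd2, 3 in smb, and 3 were called lower in hat2. Their part in the results below was not tested.

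The sequences of 4 members on which the results turn are shown first, from the RefSeq genome (TAIR10.1), whose coordinates matched those of 3121 of the 3129 members. For AT5G33390, AT3G33528 and AT3G42806 the window runs from 250 bases before to 50 bases after the annotated start, read 5′ to 3′ on the strand of the gene, and capitals mark CG dinucleotides, the context of the most stable plant DNA methylation. These windows lie at chr5:12661458-12661757 (plus strand), chr3:14084297-14084596 (minus strand) and chr3:14913758-14914057 (plus strand). For AT3G42090 both counted exons are given, at chr3:14274222-14274296 and chr3:14274661-14274699 (plus strand), because all counts of this pseudogene fell on these 114 bases.
AT5G33390: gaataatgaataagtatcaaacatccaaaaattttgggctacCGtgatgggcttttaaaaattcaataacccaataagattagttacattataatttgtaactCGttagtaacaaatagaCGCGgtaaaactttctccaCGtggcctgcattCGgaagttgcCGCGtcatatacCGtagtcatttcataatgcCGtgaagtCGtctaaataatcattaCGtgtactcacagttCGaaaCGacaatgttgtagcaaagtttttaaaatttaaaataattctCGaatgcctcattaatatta
AT3G33528: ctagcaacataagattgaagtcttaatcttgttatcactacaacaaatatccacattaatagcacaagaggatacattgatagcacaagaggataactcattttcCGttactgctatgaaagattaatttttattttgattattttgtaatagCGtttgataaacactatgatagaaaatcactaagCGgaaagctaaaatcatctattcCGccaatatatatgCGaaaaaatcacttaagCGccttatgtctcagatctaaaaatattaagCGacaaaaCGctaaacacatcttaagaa
AT3G42806: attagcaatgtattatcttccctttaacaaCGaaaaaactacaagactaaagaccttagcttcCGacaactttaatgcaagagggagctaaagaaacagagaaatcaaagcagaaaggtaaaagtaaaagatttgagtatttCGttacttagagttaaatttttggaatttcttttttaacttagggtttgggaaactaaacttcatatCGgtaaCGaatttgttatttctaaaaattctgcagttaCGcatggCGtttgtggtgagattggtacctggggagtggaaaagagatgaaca
AT3G42090 exon 1: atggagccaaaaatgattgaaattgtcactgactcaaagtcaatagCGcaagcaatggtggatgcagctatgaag
AT3G42090 exon 2: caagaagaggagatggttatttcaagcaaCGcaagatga

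The AT5G33390 window held 15 CG dinucleotides, and 5.83% of the 37032 windows of the same length held as many or more. AT3G33528 had 8 and AT3G42806 had 7, close to the median of 7 over all member windows. TATAAA, searched on both strands, was in none of these 3 windows, while 48.8% of all windows of the chromosomes held it. Silent and transcribed members differed in this composition. Among members with 0 counts the median GC content of the window was 37.0% and 34.0% held TATAAA, and among tested members the values were 31.3% and 55.6%. Among other tested genes they were 32.3% and 50.2%. Members with 0 counts and tested members also differ in annotation class. Within protein-coding members the values were 36.3% and 39% with 0 counts, and 30.3% and 59.5% when tested. Within pseudogenes they were 37% and 33.2% with 0 counts, and 34.7% and 41% when tested (39 loci). In the last 50 bases before the start, TATAAA on the gene's strand was in 6.22% of tested members and 9.68% of other tested genes. These shares are descriptions of letters and say nothing of factor binding.

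Most members were silent in germinating seed. Of the 3129 members, 2365 (75.6%) had 0 counts in all 18 libraries, against 25.2% of the other genes of the chromosomes. A mean of at least 1 CPM was reached by 177 members (5.66%), against 49.4% of the other genes, and 225 members had enough counts for testing. A further 539 members held counts too low for testing, with a median of 3.0 counts over all libraries together, and 29 of these held over 50 counts in all. An allowance of 3 counts on a library of this depth corresponds to about 0.128 CPM in Col-0, so 0 counts limits but does not exclude a rare transcript, and this floor covers counting error only.

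Detection differed by annotation class, although 313 protein-coding members (49.8%) also had 0 counts, against 83.8% of pseudogenes in the windows. Among protein-coding members 141 of 629 (22.4%) reached 1 CPM, against 61.1% of other protein-coding genes. Only 26 of 2327 pseudogenes in the windows did so (1.12%), against 6.16% of pseudogenes elsewhere. Non-coding RNA genes were the exception, with 6.38% of members and 4.34% of other such genes at 1 CPM. The 225 tested members were therefore mostly protein-coding (168), with 39 pseudogenes, 17 non-coding RNA genes and 1 of another class. The plot of detected genes by class shows these shares side by side.

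**Figure D1:**
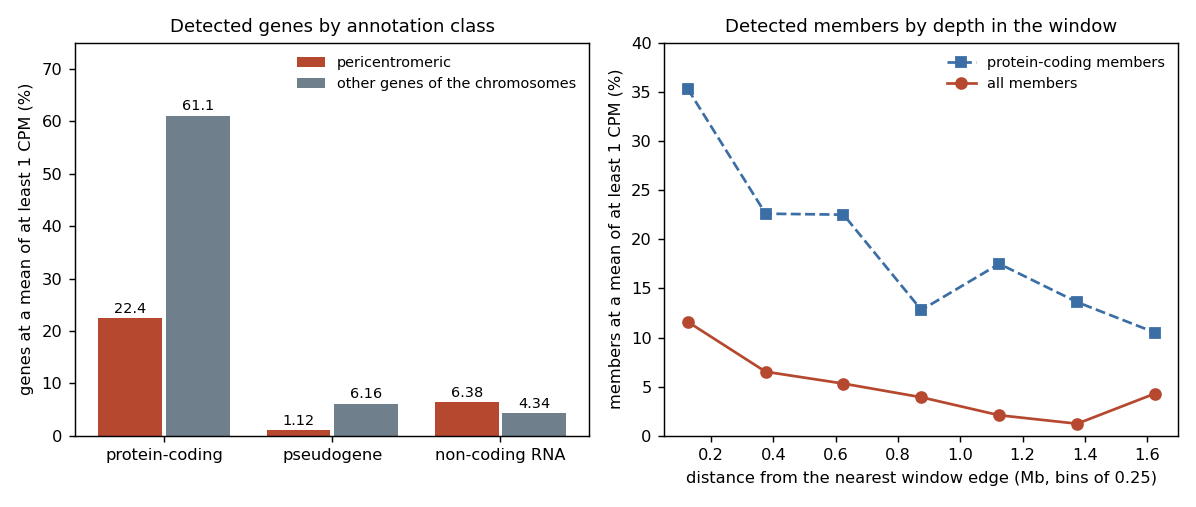
Left, share of genes at a mean of at least 1 CPM (%) by annotation class in the pericentromeric windows and in the rest of the chromosomes, for example 22.4% against 61.1% of protein-coding genes. Right, the same share among members, all of them or only the protein-coding ones, by distance from the nearest window edge in bins of 0.25 Mb; 11.6% of members were detected in the outermost bin and 1.23% at 1.25 to 1.5 Mb.

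Detection also changed with depth in the windows. Of members within 0.25 Mb of a window edge 11.6% reached 1 CPM, which dropped to 3.92% at 0.75 to 1.0 Mb and to 1.23% at 1.25 to 1.5 Mb. In the innermost bin, 4 of 93 members did so (4.3%). Among protein-coding members 35.3% were detected within 0.25 Mb of an edge and 12.8% at 0.75 to 1.0 Mb. In the deeper bins they showed no such further drop, at 17.5%, 13.6% and 10.5%. Protein-coding genes made up 26.9% of members in the outermost bin, 9.02% at 1.25 to 1.5 Mb and 20.4% in the innermost bin. The windows are 2.1 to 3.4 Mb long, so deeper bins hold fewer chromosomes, and the innermost holds only chromosome 3. Where the windows were made narrower by 0.5 Mb at each end, 72 of 1967 members remained at 1 CPM (3.66%), so the count of 177 depends on where the windows end.

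Whether repeats hide reads was examined in the sequence itself, because the handling of reads that align to several places is not stated. For each member, the share of its 50-base exon stretches found only once in the genome was computed. Tested members had a median of 100% and members with 0 counts a median of 91.5%. Of 2361 members with 0 counts that were long enough, 1246 (52.8%) had at least 90% unique stretches, and 129 (5.46%) had none. For 1246 of them 0 counts thus stood over largely unique sequence, while for members without unique stretches lost reads and absent transcripts cannot be told apart.

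The most abundant members were protein-coding. Per kb of exon, RP1 (AT1G43170, a ribosomal protein of the large subunit) led with 1295.8 CPM per kb, followed by AT1G41880 (ribosomal protein L35Ae family, 430.0), GME (AT5G28840, the GDP-mannose epimerase of ascorbate synthesis, 325.0), RPS1 (AT5G30510, plastid ribosomal protein, 313.0) and AT2G11910 (an uncharacterised protein, 191.0). Over the 18 libraries RP1 ran between 1937.8 and 2483.6 CPM with a median of 2242.9, and its genotype means spanned 0.30 on the log2 scale. None of these 5 was called over the 9 genotypes, the smallest edgeR adjusted p being 0.0134 for RPS1. Members together took 1.2% to 1.28% of the counts in a library.

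Among pseudogenes, the highest level per kb belonged to SADHU1-1 (AT2G10410, chromosome 2, 4005995 to 4007044), a member of the Sadhu non-coding retrotransposon family, at 98.8 CPM per kb. It ran from 84.7 to 127 CPM over the libraries and overlaps the pseudogene AT2G10405, with which it may share reads. AT2G06985, a pseudogene of a pentatricopeptide repeat protein, had 51.8 CPM per kb, AT2G11240 had 23.4, AT1G43675, similar to a non-LTR retroelement, had 21.9, and AT4G07507 had 11.9. AT2G11240 also overlaps AT2G11215 and AT2G11225. None of these 5 was called over the 9 genotypes (edgeR adjusted p of 0.018 to 0.443). Summed over all 2327 pseudogenes of the windows, the level was 439 to 497 CPM per library, lowest in a Col-0 library and highest in a library labelled obp1. Without AT2G11240 and SADHU1-1 it was 209 to 240 CPM. In this smaller sum both Col-0 libraries (213 and 209 CPM) were below all 16 mutant libraries (215 to 240 CPM), and the vnd2 libraries were the highest at 234 and 240 CPM. The full sum showed no such separation. There Col-0 was at 439 and 449 CPM, and an smb library (448 CPM) and a library labelled wrky14 (447 CPM) lay below the higher Col-0 value. Members too low for testing summed to 11.6 to 13.0 CPM in the mutant libraries, against 10.2 and 10.3 CPM in Col-0. These sums were not tested and were compared after their values were seen.

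The members were next compared with other genes of like level. Over the 9 genotypes, edgeR's quasi-likelihood F test called 29 of 225 tested members (12.9%) at an adjusted p under 0.01, beside a background of 11.9% of all 19100 tested genes. Without the libraries labelled obp1 and wrky14 the test called 25 members. The called members were 20 protein-coding genes, 6 pseudogenes and 3 non-coding RNA genes. A share of 12.9% is near the background, and nothing is read from it about members as a whole.

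By level the picture was uneven. At a mean under 0.5 CPM 3 of 30 members were called (10%), against 4.95% of the other tested genes of the chromosomes at that level. At 0.5 to 2 CPM 9 of 36 members were called (25%), against 11%. At 2 to 8 CPM it was 3 of 28 (10.7%) against 11.6%, at 8 to 32 CPM 2 of 54 (3.7%) against 11.2%, and at 32 CPM and over 12 of 77 (15.6%) against 14.4%. The larger share among members was thus seen below 2 CPM, where 12 of 66 members (18.2%) and 8.96% of other genes were called. Without loci that overlap another gene these shares were 16.4% and 10.1%. Of the 3 called members under 0.5 CPM, AT3G42090 and AT5G28810 passed the count filter through the line in which they were high. Their calls were thus built into their selection, and the same was not examined for other genes at that level. Counts this small were not tested against each other, and the classes are given as description.

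**Figure D2:**
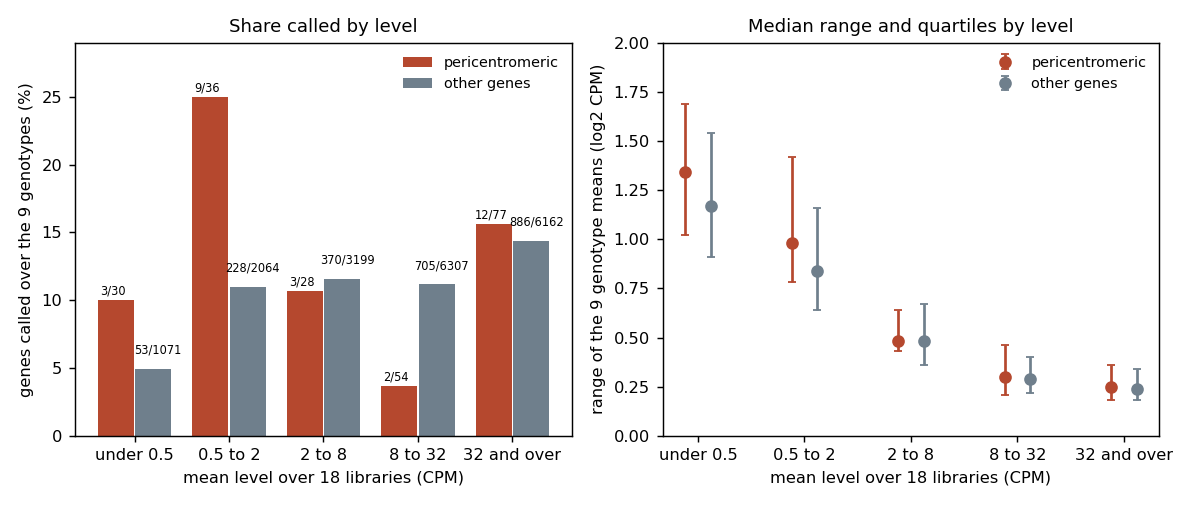
Left, share of tested genes called over the 9 genotypes (%) in 5 classes of mean CPM, with called over tested genes above each bar; at 0.5 to 2 CPM it was 25% of pericentromeric members and 11% of other genes. Right, median range of the 9 genotype means (log2 CPM) with quartiles, which falls with level in both sets, from 1.34 and 1.17 under 0.5 CPM to 0.25 and 0.24 at 32 CPM and over.

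The size of the variation followed the same course. The range of the 9 genotype means on the log2 CPM scale, with a prior count of 2, had a median of 1.14 among members under 2 CPM and 0.95 among other genes. At 2 CPM and over, the median was 0.30 in both sets. Tested pseudogenes of the windows under 2 CPM had a median range of 1.39 and pseudogenes elsewhere 0.93, with 20 and 109 genes. Members under 2 CPM were also somewhat lower in level (median 0.565 CPM, against 0.714 CPM), and range rises as level falls. Below 2 CPM the values depend on the prior count, as given in the closing section.

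Each mutant was then compared with Col-0. No member was called in athb15 (edgeR quasi-likelihood test, 32 members at an unadjusted p under 0.05, and 0 by the Wald test of DESeq2), beside 0.0366% of all genes called higher and 0.11% called lower. In vnd2 9 of 225 members were higher (4.0%, background 1.97%) and 1 lower (0.444%, background 2.16%). In the libraries labelled obp1 6 were higher (2.67%, background 2.51%) and 3 lower (1.33%, background 1.41%). In athb25 4 were higher (1.78%, background 0.984%) and 1 lower (0.444%, background 0.639%), and in smb 2 were higher (0.889%, background 0.618%) and 3 lower (1.33%, background 1.53%). In hat2 2 were higher (0.889%, background 0.393%) and 1 lower (0.444%, background 0.267%), in lmi1 1 was higher (0.444%, background 0.476%) and 2 lower (0.889%, background 0.623%), and in the libraries labelled wrky14 2 were lower (0.889%, background 0.911%) and none higher, with a background of 0.246%.

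These counts are too small to set members apart from the background in any line. The median log2 fold change over the tested members lay between 0.00 and 0.04 in the 8 lines, and that over all genes between -0.02 and 0.01. Altogether 24 members were called in at least 1 mutant (10.7%, background 9.34%), 16 of them in 1 only, and the 8 comparisons share the Col-0 libraries. With 3 members called in a mutant but not over the 9 genotypes (RAP2.9, PCN and AT4G07825), 32 members carried a call. Leaving out any single library of a comparison lowered the number called to 1 in athb25 and to 3 or 4 in the libraries labelled obp1. Without Col-0 replicate 1 the number was 5 in vnd2, 1 in each of hat2, lmi1 and smb and 0 in the libraries labelled wrky14, and without Col-0 replicate 2 it was 4 in vnd2 and 1 in hat2. No member was called in smb without smb replicate 2, or in the libraries labelled wrky14 without their replicate 1. Among the 37 calls of a member in a mutant, 9 were kept under every alternative that gave a value, DESeq2 giving none for AT3G42090 in vnd2, 17 were lost only when 1 library was left out, and none changed direction.

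**Figure D3:**
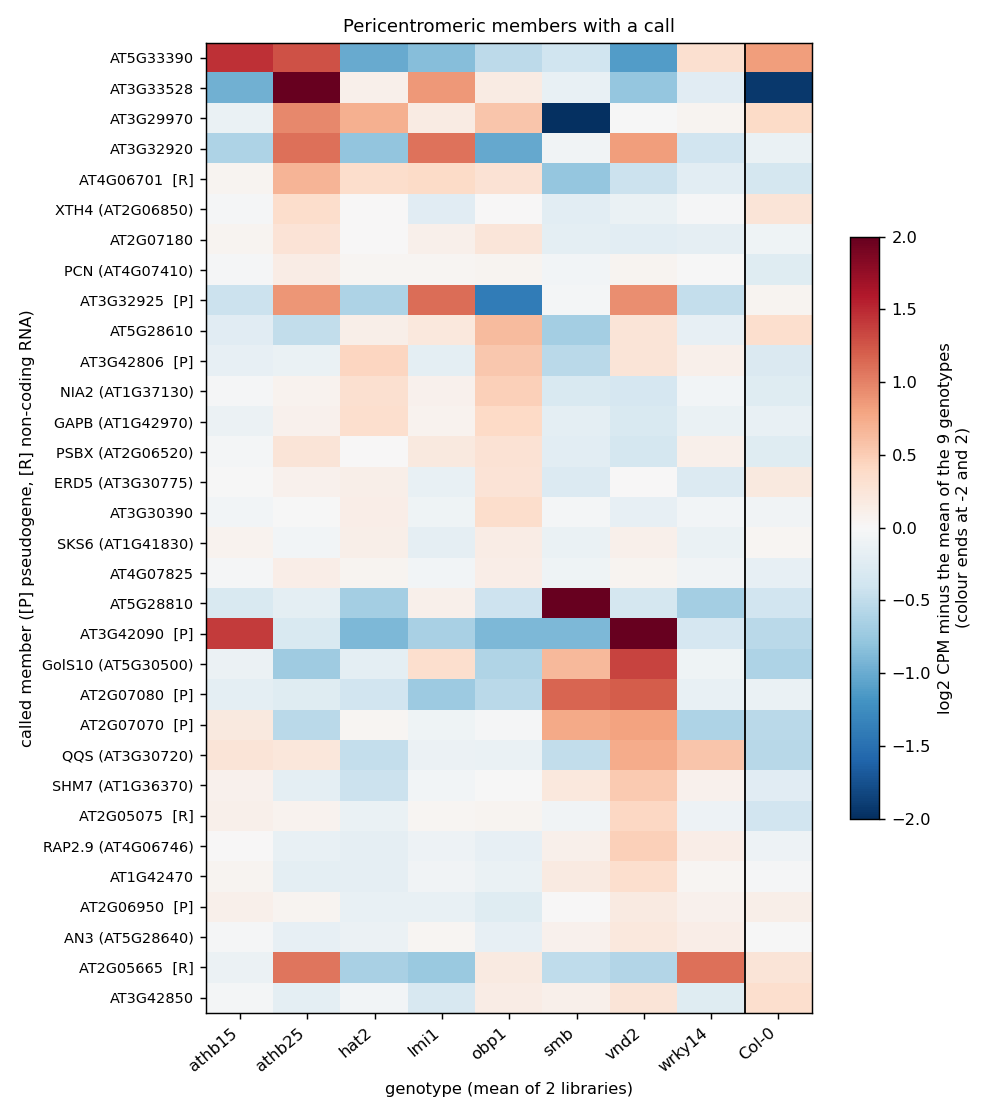
The 32 members with a call, by genotype, with Col-0 in the last column. Colour is the genotype mean of log2 CPM minus the mean of the 9 genotypes, and the scale ends at -2 and 2; members are ordered by the genotype in which they were highest, and vnd2 was highest for 11 of them.

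Some low members were found in 1 genotype and nearly absent from another. AT3G33528 (chromosome 3, 14082640 to 14084346) encodes an uncharacterised protein and had 81 and 55 counts in athb25 (2.97 and 2.25 CPM), against 0 and 1 count in Col-0. With Col-0 at a floor of 3 counts per library this was at least 20.3-fold higher (edgeR adjusted p = 2.34e-06), and the call was kept under every alternative. The other 7 lines lay between, at 0.041 to 0.613 CPM, and both athb25 libraries were above all 16 others. In lmi1 it had 17 and 15 counts and was also called higher (edgeR adjusted p = 0.00518), but this call was lost with DESeq2 (adjusted p = 0.0445), in a model of 4 libraries (0.013) and when any of its 4 libraries was left out (0.0143 to 0.0829).

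The genes around AT3G33528 carried no call. Its neighbours on 1 side, AT3G33530 and ARP6 (AT3G33520, a subunit of a chromatin remodelling complex that deposits a histone variant), stood at 85.3 to 103 CPM and 33.1 to 39.3 CPM over the 18 libraries. These genes overlap each other, and neither was called over the 9 genotypes (edgeR adjusted p of 0.35 and 0.616), and in athb25 their log2 fold changes were -0.07 and 0.14. On the other side, 4 pseudogenes had 0 counts in every library. Of the 50-base stretches of AT3G33528, 92.2% were unique in the genome.

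A second such case was a run of 3 adjacent pseudogenes, AT3G42090, AT3G42100 and AT3G42110, which together span 10485 bases of chromosome 3 (14274222 to 14284706). AT3G42090 had 27 and 30 counts in vnd2 (0.998 and 1.3 CPM), 4 and 10 counts in athb15 and at most 1 count in each of the other 14 libraries, Col-0 included. It was at least 8.96-fold higher in vnd2 than the Col-0 floor (edgeR adjusted p = 8.9e-05). The pseudogene passed the count filter through the vnd2 libraries, so a difference in this line was built into its selection. The call was kept under the edgeR alternatives, while the Wald test of DESeq2 gave no adjusted p for it. The value in athb15 did not pass the threshold (edgeR adjusted p = 0.135).

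Its neighbours AT3G42100 and AT3G42110 were below the count filter but also had most of their counts in vnd2. AT3G42100 had 11 and 7 counts in vnd2, 2 and 4 in athb15, and 0 in the other 14 libraries. AT3G42110 had 11 and 8 counts in vnd2, 2 and 1 in athb15, and at most 1 elsewhere. Together the 3 loci held 94 counts in vnd2, 23 in athb15 and 8 in the other 14 libraries. Fitted without a filter, both neighbours were called over the 9 genotypes (edgeR adjusted p of 1.68e-05 and 9.13e-05). That fit was more liberal throughout, calling 5384 genes against 2272 with the filter. Both loci held 24 counts in all and were examined because they adjoin a called locus, so these values are description only. Of the 539 members below the filter, only these neighbours were called in the fit without a filter. Among all genes below the filter 22 were called in that fit, which held 26321 genes, against 19100 that pass the filter. The calls thus do not set members apart. In vnd2 against Col-0, AT3G42110 passed the threshold in that fit (edgeR adjusted p = 0.00833) and AT3G42100 did not (0.011). Of the 10 other loci annotated around them 9 had 0 counts throughout and AT3G42060 held 1 count, and the nearest active gene, AT3G42150, stood at 22.3 to 27.9 CPM without a call (edgeR adjusted p = 0.427).

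**Figure D4:**
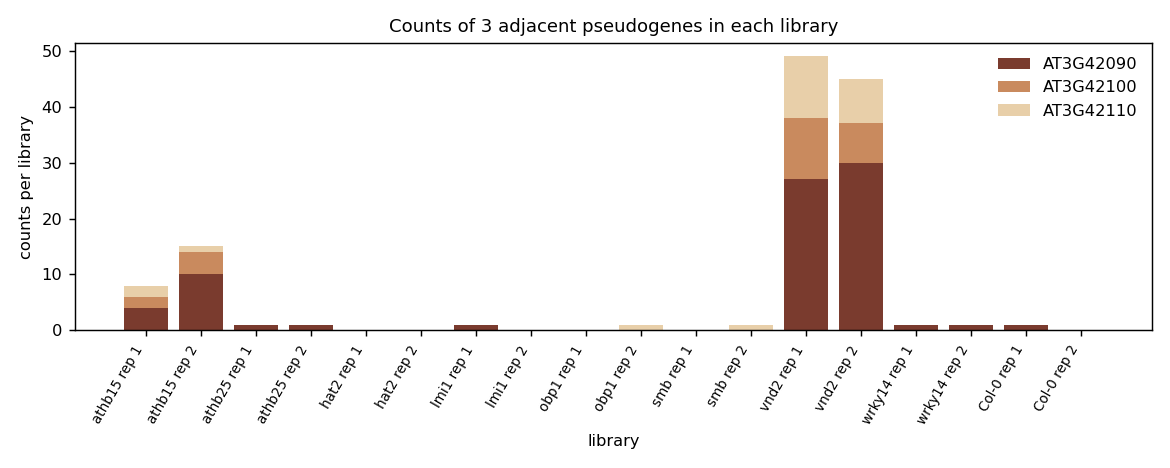
Counts of the pseudogenes AT3G42090, AT3G42100 and AT3G42110, stacked, in each of the 18 libraries with Col-0 at the right. The vnd2 libraries held 49 and 45 counts and the athb15 libraries 8 and 15, and each of the other 14 libraries held 0 or 1.

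AT5G28810 (chromosome 5, 10823356 to 10826646), whose closest Arabidopsis match is a Ulp1 protease family protein, had 13 and 31 counts in smb (0.709 and 0.98 CPM), against 0 and 1 count in Col-0. No other library exceeded 2 counts. The level in smb was at least 6.58-fold above the Col-0 floor (edgeR adjusted p = 0.00122), but the gene passed the count filter through the smb libraries alone, so that it had to differ there. The call was lost with DESeq2 (adjusted p = 0.0791) and without smb replicate 2 (0.0278) or either Col-0 library (0.0212 and 0.0191). Only 81.7% of its 50-base stretches were unique, so reads from related copies may be included.

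The reverse was seen for AT3G29970 (chromosome 3, 11745197 to 11746570), which encodes a B12D family protein. It had 0 and 0 counts in smb, against 13 and 14 counts in Col-0 (0.621 and 0.53 CPM), and ran from 0.246 to 0.941 CPM in the other 14 libraries. With smb set at the floor it was at least 4.45-fold lower in smb (edgeR adjusted p = 0.000523), and without smb replicate 2 the adjusted p was 0.0241. Both smb libraries were below all 16 others.

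The member called in the most lines was AT5G33390 (chromosome 5, 12661708 to 12663496), a glycine-rich protein gene. It was at 0.82 and 0.678 CPM in hat2, 0.778 and 0.9 CPM in lmi1, 1.19 and 0.976 CPM in the libraries labelled obp1, 1.15 and 1.2 CPM in smb and 0.887 and 0.521 CPM in vnd2, against 2.96 and 2.8 CPM in Col-0. The log2 fold changes in these 5 lines were -1.93 (SE 0.22), -1.78 (SE 0.219), -1.41 (SE 0.206), -1.28 (SE 0.211) and -2.0 (SE 0.232), all called by edgeR, with adjusted p of 1.41e-05 to 0.000942. In athb15 it was 4.17 and 4.76 CPM and in athb25 3.92 and 3.93 CPM, both pairs above Col-0 without passing the threshold (edgeR adjusted p of 0.132 and 0.13). The libraries labelled wrky14 lay between, at 1.9 and 2.1 CPM.

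For AT5G33390 the 10 libraries of the 5 called lines did not overlap the 8 others. The lines were grouped by calls made on these same values, so this is description. The 8 others were themselves spread, from 1.9 CPM in a library labelled wrky14 to 4.76 CPM in an athb15 library. The range over genotypes was 2.58 on the log2 scale (5.98-fold), and the F test over the 9 genotypes gave the smallest adjusted p of any member (edgeR, 2.23e-08). In smb the call was lost when 1 library was left out (adjusted p of 0.0102 to 0.025), and in the other 4 lines it was kept under every alternative. Of its 50-base stretches 99.3% were unique.

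**Figure D5:**
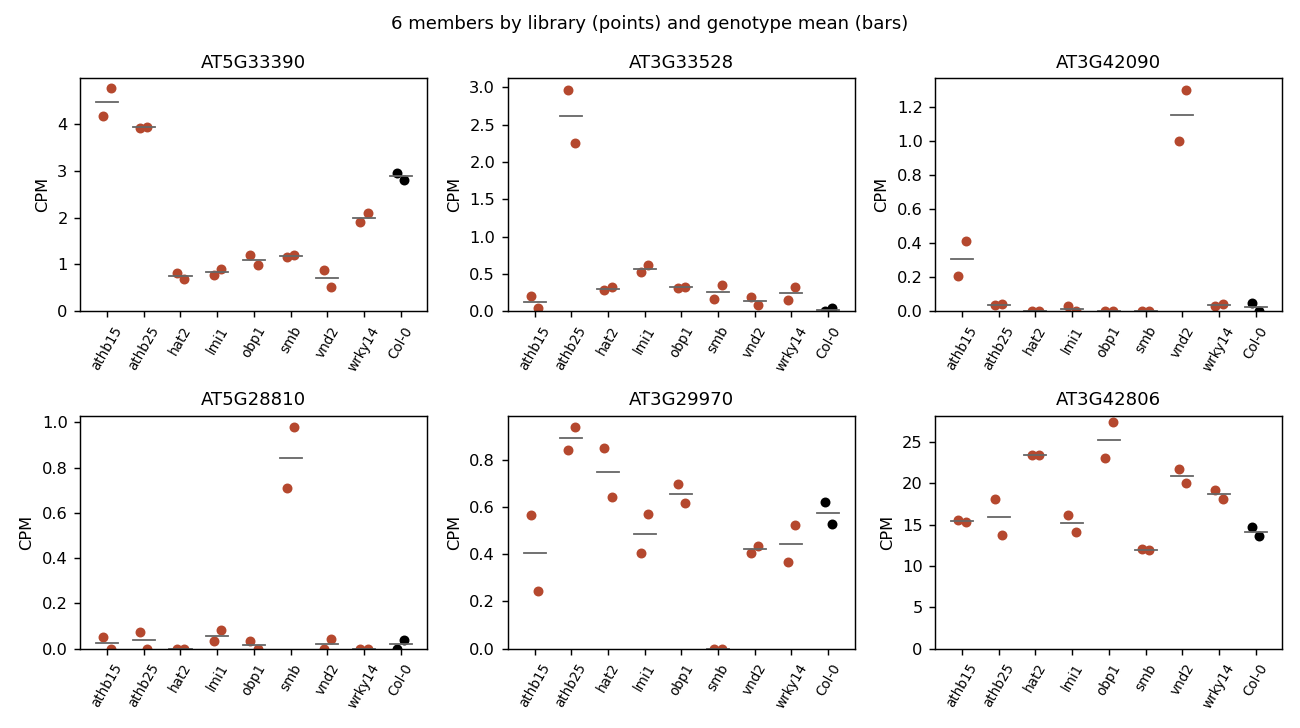
CPM of 6 members in each library (points, 2 per genotype) with the genotype mean (bars), Col-0 in black at the right. AT5G33390 was at 0.521 to 1.2 CPM in the 5 lines where it was called lower, AT3G33528 reached 2.97 CPM in athb25, AT3G42090 1.3 CPM in vnd2 and AT5G28810 0.98 CPM in smb, and AT3G29970 had no count in smb.

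The pseudogene AT3G42806 (chromosome 3, 14914008 to 14918667) was called in 3 lines. It was at 23.4 and 23.4 CPM in hat2, 23.1 and 27.4 CPM in the libraries labelled obp1 and 21.7 and 20 CPM in vnd2, against 14.7 and 13.6 CPM in Col-0. The log2 fold changes were 0.73 (SE 0.112, edgeR adjusted p = 0.00169), 0.84 (SE 0.111, 0.000139) and 0.56 (SE 0.114, 0.00354). All 6 libraries of these lines were above both Col-0 libraries, while smb at 12.0 and 11.9 CPM was below them without a call (edgeR adjusted p = 0.387). Leaving out single libraries ended the call in hat2 and in vnd2 (adjusted p of 0.0338 and 0.0574 without Col-0 replicate 2), and the call in the libraries labelled obp1 was kept under every alternative.

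Some called members lay beside each other. AT3G32925, a pseudogene, lies within AT3G32920, which encodes a P-loop nucleoside triphosphate hydrolase, so reads of the pair could not be separated. AT3G32925 was at 2.61 and 2.21 CPM in lmi1, 2.01 and 2.01 CPM in athb25, 2.03 and 2.13 CPM in vnd2 and 0.384 and 0.325 CPM in the libraries labelled obp1, against 1.19 and 1.02 CPM in Col-0. Only the fall in the libraries labelled obp1 was called (log2 fold change -1.63, SE 0.341, edgeR adjusted p = 0.00547). It was lost when any of the 4 libraries was left out, and also with the DESeq2 Wald test (adjusted p of 0.01). Over the 9 genotypes the edgeR adjusted p was 6.31e-06 for AT3G32925 and 6.53e-05 for AT3G32920.

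The pseudogenes AT2G07070 and AT2G07080 lie next to each other on chromosome 2 (2932228 to 2934314 and 2936239 to 2938827) without overlapping. AT2G07070 was at 2.13 and 2.02 CPM in smb and 2.22 and 2.04 CPM in vnd2, against 0.764 and 0.833 CPM in Col-0. It was called in both lines (log2 fold changes 1.36, SE 0.282, and 1.41, SE 0.28; edgeR adjusted p of 0.00698 and 0.00311). AT2G07080 was at 1.69 and 1.74 CPM in smb and 1.96 and 1.61 CPM in vnd2, against 0.812 and 0.53 CPM in Col-0, and was called over the 9 genotypes (edgeR adjusted p = 0.00137) but in neither line alone (0.0446 and 0.0186). Of the 50-base stretches of AT2G07080 84.8% were unique, so reads from related copies may be included. The 2 calls of AT2G07070 were lost when any of their libraries was left out. The call in smb was also lost with the DESeq2 Wald test (adjusted p = 0.0221). In the model of 4 libraries neither call passed (edgeR adjusted p of 0.0102 in smb and 0.0104 in vnd2). These are also the lines with the highest seed reserve transcripts, and a link was not tested. AT2G07070 stood at 1.13 and 0.484 CPM in the libraries labelled wrky14, next in reserve transcripts, and at 1.36 and 1.11 CPM in hat2, the lowest. The non-coding RNA gene AT2G05075, on the other side of AT2G07070, was at 9.9 and 10.2 CPM in vnd2, against 5.97 and 5.61 CPM in Col-0 (log2 fold change 0.80, SE 0.131, edgeR adjusted p = 0.000544), a call lost without Col-0 replicate 2 (0.0162), and was not called in smb (0.303).

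The protein-coding members called higher in the libraries labelled obp1 included NIA2, GAPB and PSBX. NIA2 (AT1G37130), a nitrate reductase, was at 152 and 164 CPM in the libraries labelled obp1 and 144 and 140 CPM in hat2, against 94.7 and 96.7 CPM in Col-0 (log2 fold changes 0.72, SE 0.0965, and 0.57, SE 0.0965; edgeR adjusted p of 0.000153 and 0.00356). GAPB (AT1G42970), a subunit of the chloroplast glyceraldehyde phosphate dehydrogenase, was at 299 and 329 CPM in the libraries labelled obp1, against 208 and 225 CPM in Col-0 (log2 fold change 0.54, SE 0.0972, edgeR adjusted p = 0.00201). PSBX (AT2G06520), a photosystem II subunit, was higher in the libraries labelled obp1 (148 and 163 CPM) and in athb25 (152 and 155 CPM), against 99.7 and 117 CPM in Col-0, with edgeR adjusted p of 0.00436 and 0.0097. In vnd2 these 3 genes had log2 fold changes of -0.08, -0.16 and -0.11, without a call. The NIA2 call in the libraries labelled obp1 was kept under every alternative, and the other calls were lost when a Col-0 library was left out (adjusted p of up to 0.165 for PSBX in athb25 without Col-0 replicate 1). With the replicate number as a block, PSBX in athb25 was not called either (0.0141).

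Of the 9 members called higher in vnd2, 5 were protein-coding, 3 were pseudogenes and 1 was a non-coding RNA gene. SHM7 (AT1G36370), a serine hydroxymethyltransferase, was at 48.9 and 62.3 CPM in vnd2, against 33.5 and 32.4 CPM in Col-0 (log2 fold change 0.75, SE 0.0985, edgeR adjusted p = 5.02e-05), and this call was kept under every alternative. QQS (AT3G30720), a gene found only in Arabidopsis thaliana that affects starch content and whose expression is known to vary with DNA methylation between accessions, was at 2.0 and 2.48 CPM, against 0.716 and 1.02 CPM in Col-0 (log2 fold change 1.33, SE 0.258, edgeR adjusted p = 0.00258). GolS10 (AT5G30500), annotated as a galactinol synthase, was at 1.37 and 0.913 CPM, against 0.334 and 0.152 CPM in Col-0 (log2 fold change 2.28, SE 0.422, edgeR adjusted p = 0.00167). The AP2-type transcription factor gene RAP2.9 (AT4G06746) and the Patched family gene AT1G42470 were also called, with log2 fold changes of 0.58 and 0.36. Of these, QQS, GolS10, RAP2.9 and AT1G42470 lost the call when single libraries were left out, Col-0 replicate 2 among them (adjusted p of 0.0124, 0.0572, 0.0393 and 0.0155). All 4 were also lost in the model of 4 libraries (0.0186, 0.0136, 0.0182 and 0.0184), GolS10 and RAP2.9 with DESeq2 (0.0132 and 0.0101) and RAP2.9 with the replicate number as a block (0.0134).

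Falls among abundant members were small. AT3G42850, a mevalonate and galactokinase family gene, stood at 88.9 and 96.3 CPM in athb25, 82.9 and 87.3 CPM in lmi1 and 82.6 and 97.1 CPM in the libraries labelled wrky14, against 137 and 129 CPM in Col-0. The log2 fold changes were -0.52, -0.64 and -0.57 (edgeR adjusted p of 0.00276, 0.000466 and 0.00122), and each call was lost without Col-0 replicate 1 (0.0459, 0.0117 and 0.0273). ERD5 (AT3G30775), a proline dehydrogenase, was at 75.9 and 76.3 CPM in smb and 76.5 and 75.6 CPM in the libraries labelled wrky14, against a pair of Col-0 libraries at 109 and 102 CPM. The change was -0.47 on the log2 scale in both (edgeR adjusted p of 0.000853 and 0.00145), and without Col-0 replicate 1 neither passed (0.0209 and 0.0392).

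The remaining calls were changes of small size. In the libraries labelled obp1, AT3G30390, an amino acid transporter family gene that overlaps AT3G30380, was at 130 and 133 CPM, against 95.4 and 101 CPM in Col-0, and the uncharacterised gene AT4G07825 was at 103 and 98.6 CPM, against 82.6 and 80.3 CPM in Col-0. The pseudogene AT2G06950 was lower there, at 26.3 and 28.8 CPM, against 34.9 and 35.4 CPM in Col-0. PCN, a WD40 repeat protein gene that overlaps AT4G07408, was at 207 and 197 CPM in athb25, against 146 and 163 CPM in Col-0. The edgeR adjusted p of these 4 calls was 0.00387, 0.00546, 0.00886 and 0.00471, and leaving out any library of the comparison ended each of them (0.011 to 0.136). The call of AT2G06950 was also lost with DESeq2 size factors (0.0104), the DESeq2 Wald test (0.0105), the replicate number as a block (0.0114) and the model of 4 libraries (0.0106).

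Apart from AT2G07080, AT2G05665 and AT3G32920, 5 genes were called over the 9 genotypes without a call in any line. The cell wall genes XTH4 (a xyloglucan endotransglucosylase) and SKS6 ran from 29.5 to 48.5 CPM and from 173 to 231 CPM, the growth regulator gene AN3 from 50.1 to 70.5 CPM and the protein kinase gene AT2G07180 from 18.3 to 27.1 CPM. AT5G28610, a gene similar to a glycine-rich protein gene, ran from 1.31 CPM in smb to 3.66 CPM in a library labelled obp1. Without the libraries labelled obp1 and wrky14, SKS6, AN3 and AT5G28610 were no longer called (edgeR adjusted p of 0.016, 0.0151 and 0.0339), and neither were AT2G06950 (0.0453) and AT3G30390 (0.151). AN3 was also lost with the replicate number as a block (0.0121), with DESeq2 size factors (0.0102) and in most cases where 1 library was left out (up to 0.0318), and XTH4 without either athb25 library (0.0112 and 0.0149).

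Non-coding RNA members gave 3 calls over the 9 genotypes, AT2G05075, AT4G06701 and AT2G05665. This is 3 of 17 tested (17.6%), beside 11.9% of all tested genes and 4.38% of other tested non-coding RNA genes. The median level was 1.17 CPM in these members and 0.843 CPM in the other non-coding RNA genes. With so few genes the shares were not compared, and nothing is read from them. The call of AT2G05075 (edgeR adjusted p = 0.00941) was lost with the replicate number as a block (0.0147) and in most cases where 1 library was left out (0.0103 to 0.0396). AT4G06701 was at 4.43 and 4.95 CPM in athb25, against 2.2 and 2.31 CPM in Col-0 (log2 fold change 1.05, SE 0.196, edgeR adjusted p = 0.00454), and lost the call when any of the 4 libraries was left out (0.0289 to 0.0618). AT2G05665 was at 2.2 and 2.38 CPM in the libraries labelled wrky14 and 1.98 and 2.54 CPM in athb25, against 1.24 and 1.25 CPM in Col-0, without a call in either, and it overlaps AT2G05675.

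The genes that maintain heterochromatin were examined beside the members. The list held 17 genes, among them the DNA methyltransferase genes MET1, CMT2 and CMT3, the remodeller gene DDM1, the histone methyltransferase genes SUVH4, SUVH5 and SUVH6, the linker histone genes H1.1 and H1.2 and the centromeric histone gene CENH3. All 17 were tested, and 1 was called over the 9 genotypes, beside the background of 11.9%. It was CMT3, at 16.6 and 15.6 CPM in vnd2, against 21.0 and 21.6 CPM in Col-0 (log2 fold change -0.41, edgeR adjusted p = 0.00179). No other gene of the list was called in any line. The median log2 fold change of the list was between -0.14 (vnd2) and 0.01, beside -0.02 to 0.01 over all genes, and MET1 ran from 48.2 to 59.1 CPM and DDM1 from 30.2 to 38.2 CPM over all libraries.

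The copy of mitochondrial DNA on chromosome 2 (3.2 to 3.6 Mb) contributed 195 members, of which 114 had 0 counts, 6 were tested and none was called (edgeR F test). Most of its counts fell on 2 ordinary genes, MCM5 (AT2G07690, a replication licensing factor, 36.0 to 45.0 CPM) and ABCC13 (AT2G07680, a transporter, 8.19 to 13.4 CPM). Without these 2, the whole copy held 64 to 171 counts in a library. The 152 annotated mitochondrial genes took 0.00983% to 0.0241% of the counts of these polyA-selected libraries, and reads of the 2 compartments cannot be told apart where the sequences are the same. Without the copy, 29 of 219 tested members were called.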

How the data were processed

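The deposited table held raw counts, which the authors made by trimming reads with Trim Galore 0.4.2, aligning them to TAIR10 with HISAT2 2.0.5 and counting over the Araport11 annotation by featureCounts 1.5.1. Strand use and the handling of multiply aligned reads are not given in the sources used here. Members were taken by position, and lists, members and tests were chosen with earlier results of these data known. Symbols and classes came from RefSeq (TAIR10.1), matched for 37051 of 37336 genes. Genes with low counts were removed with filterByExpr (19100 tested), scaled by TMM and fitted in edgeR 4.0.16 (R 4.3.3) with all 18 libraries in 1 model. A call required an adjusted p (Benjamini-Hochberg, over all tested genes) under 0.01. CPM used TMM-scaled totals, and floors were 3 counts per library. Replicates differed by 2.21 to 9.97 times the sampling variance. On simulated counts for the test over the 9 genotypes, 69.5%, 91% and 100% of 200 genes changed by 0.5, 1 and 2 (log2) were recovered. These genes were changed in vnd2 alone, drawn from above a minimum level and given a spread common to all genes. The recovered shares therefore do not cover the lowest members or genes of larger spread. Named members were those called in the most lines, the largest rise and fall per line, the 5 highest per kb and the 5 of smallest p overall and among pseudogenes, and those on in 1 genotype and off in another. Other called members, named after their values were seen, complete the account. DESeq2 1.42.0 served as an alternative.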

Additional observations from a re-analysis of the deposited data

How the results depend on the processing

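The number of members called over the 9 genotypes was 29. Without a count filter it was 77 of 764 members (5384 of all 26321 genes, against 2272 of 19100 with the filter). It was 44 with the likelihood ratio test of DESeq2 (16.2% of all genes), 65 at an adjusted p under 0.05 (24.5%) and 15 where a range of at least 1 was also required (4.05%). Leaving out 1 library gave 25 to 35, and leaving out the libraries labelled obp1 and wrky14, an alternative chosen after seeing the data, gave 25. Without a count filter the calls were 21 in vnd2, 21 in obp1, 20 in lmi1, 18 in athb25, 15 in smb, 11 in wrky14, 10 in hat2 and 3 in athb15, and at an adjusted p under 0.05 they were 20 in athb25, 7 in hat2, 15 in lmi1, 25 in obp1, 11 in smb, 24 in vnd2 and 5 in wrky14. Where a change of 1 or more on the log2 scale was required there were 2 in athb25, 1 in hat2, 2 in obp1, 5 in vnd2 and 0 in wrky14. The Wald test of DESeq2 called 8 in athb25, 5 in hat2 and 6 in lmi1, and models of 4 libraries called 1 in athb15 and 5 in vnd2. Leaving out 1 library gave 1 in athb25, 1 to 2 in hat2, 1 to 4 in lmi1, 3 to 4 in obp1, 0 to 4 in smb, 4 to 8 in vnd2 and 0 to 2 in wrky14; the lone library left was assumed to vary like the others. The cause of these changes was not tested, beyond the fewer libraries. The counts by line stand without the share over all genes, so nothing is read from them about members as a whole.

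Same-numbered libraries did not deviate together (correlations of -0.163 to 0.194 over 36 pairs), so a replicate number names a library and does not pair it. With the number as a replicate block 27 members were called over the 9 genotypes, and by line 9 in vnd2, 8 in obp1, 5 in smb, 4 in athb25, 3 in each of hat2 and lmi1, 2 in wrky14 and 0 in athb15.

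The count of members at 1 CPM was 72 in the narrower windows, against 177. With a prior count of 0.5 the median range under 2 CPM was 1.31 among members and 1.05 among other genes, and without 1 library it was 1.15 to 1.30 among members and 0.96 to 1.01 among other genes. No call of a named member changed direction under the alternatives, and depth limits what can be said of members under about 0.5 CPM.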
